A study of Mus musculus with 8 samples.

Results

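Accessible chromatin was described at 44 autosomal genes of the nuclear envelope and the nuclear pore in mouse bone-marrow-derived macrophages. Wild-type (WT) cells and cells without Lamin-A (KO) were either left untreated or exposed to lipopolysaccharide (LPS), a bacterial cell wall component, for 6 h. There were 2 ATAC-seq libraries in each of the 4 groups (WT untreated, WT LPS, KO untreated, KO LPS), and the series asked how LPS alters accessibility and what role Lamin-A has in it. ATAC-seq uses the Tn5 transposase to insert adapters into open DNA, and a peak is a stretch with more insertions than its surroundings. The bone marrow cells were cultured for 7 days, and all groups were frozen in medium with 5% DMSO before tagmentation. Strain, age and sex of the mice, the dose of LPS and the part of Lmna that was targeted are not given in the labels, nor is it stated whether the KO was constitutive or driven in macrophages alone. The labels do not say that the libraries of a group came from separate animals, so p-values here measure the spread between these libraries, which may be technical.

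Peaks of the 8 deposited lists that overlapped gave 76751 merged regions, and every library called 30960 of these. Each region was assigned to the protein-coding gene with the nearest end of its annotated span within 50 kb, and 150 regions fell to 42 of the 44 members. Banf1, which encodes the DNA-bridging protein BAF, and Nup188, an inner ring nucleoporin, received none. Both have a promoter region called in all 8 libraries, but its summit lay closer to an end of Eif1ad and of Dolk, respectively. Tmpo had 16 regions, Syne3 14, Lemd2 9 and Tor1aip1 8, while Narf, Icmt, Zmpste24, Fnta, Nup54, Nup155, Rae1, Tpr, Nup37 and Syne1 had a single assigned region each. Tpr and Nup37 also had a promoter region called in all 8 libraries, with its summit closer to an end of Odr4 and of Parpbp, respectively. The long Syne1 span held 14 regions, and 13 of these lay over 50 kb from any gene end and were left out. Of those 13, 3 were called in all 8 libraries. Syne2 held 6 regions inside its span, 4 of them not assigned to it. Close to the distance limit, the outermost members' regions inside it lay 45.2 kb (Nup88), 46.9 and 48.3 kb (Nup210), 47.1 kb (Syne1), 47.7 kb (Lemd2) and 47.7 kb (Syne2) from a gene end, and a Syne1 region at 59.9 kb lay just beyond it.

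The nuclear envelope is a double membrane lined on its inner face by the lamina, a meshwork of A-type and B-type lamins. LEM-domain proteins bind BAF and tether chromatin to the inner membrane, and SUN and nesprin proteins form the LINC complex, which couples the lamina to the cytoskeleton. Prelamin A, the precursor of Lamin-A, is farnesylated, carboxymethylated and cleaved, and nuclear pores perforate the envelope as assemblies of nucleoporins that carry all transport between nucleus and cytoplasm. These genes are active in most cell types.

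The KO lists were shorter than the WT lists, with 44504 to 49661 peaks against 53942 to 59750, and this bears on every count of lost calls below. Member regions made up 0.202 to 0.220% of the regions in each library. All 8 macrophage marker genes examined, among them Csf1r, Itgam and Spi1, had a region called in all 8 libraries at a gene end. This was so for 0 of 4 B cell, 1 of 4 T cell (Cd3d), 1 of 4 neutrophil (S100a8), 0 of 3 erythroid and 2 of 4 stromal and endothelial markers (Col1a1 and Kdr). Peak calls at Lmna do not test whether the protein was lost. In a peak list from many cells, a region open in fewer cells and a region less open in every cell cannot be told apart.

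Promoter sequences of 8 members are shown because they lie in or near regions named in the results, none of which was derived from the sequences. Nup54 and Nup155 had the strongest gene-end regions and Syne2 had a weak one, next to a region called with LPS alone. Ranbp2 and Nup98 ranked higher in KO. Nup50 combined several motifs and lay near a region called in untreated cells alone. The Sun1 sequence surrounds an internal start of the gene, and this start lies inside a region that ranked higher with LPS. Most of the Sun1 window lies upstream of that region. The Pom121 sequence lies within a region that ranked lower with LPS. Each is the RefSeq window from 250 bases before to 50 after an annotated start (GRCm38.p6, the assembly of mm10), written 5′ to 3′ on the gene's strand. Capitals mark letters searched on either strand, which were CCGGAAG (ETS factors), GCATGCGC (NRF1), AAGATGGCG (YY1), CCAAT (NFY) and GGGCGG (SP factors), and may overlap. Coordinates and strands are chr5:92435150-92435449, minus (Nup54), chr15:8109063-8109362, plus (Nup155), chr12:75818068-75818367, plus (Syne2), chr10:58446602-58446901, plus (Ranbp2), chr7:102210117-102210416, minus (Nup98), chr15:84923178-84923477, plus (Nup50), chr5:139214908-139215207, plus (Sun1) and chr5:135394497-135394796, minus (Pom121).
Nup54: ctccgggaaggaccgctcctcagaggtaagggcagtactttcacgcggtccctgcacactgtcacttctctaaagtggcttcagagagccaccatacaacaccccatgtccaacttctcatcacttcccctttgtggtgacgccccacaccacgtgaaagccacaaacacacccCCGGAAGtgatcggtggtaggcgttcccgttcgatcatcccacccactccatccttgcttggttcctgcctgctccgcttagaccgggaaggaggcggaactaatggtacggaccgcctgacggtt
Nup155: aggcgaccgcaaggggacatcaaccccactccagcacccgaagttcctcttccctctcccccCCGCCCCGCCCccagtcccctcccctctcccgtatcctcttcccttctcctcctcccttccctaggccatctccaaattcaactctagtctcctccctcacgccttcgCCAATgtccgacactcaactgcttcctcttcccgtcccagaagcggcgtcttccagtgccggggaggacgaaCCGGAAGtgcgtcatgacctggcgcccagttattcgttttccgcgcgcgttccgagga
Syne2: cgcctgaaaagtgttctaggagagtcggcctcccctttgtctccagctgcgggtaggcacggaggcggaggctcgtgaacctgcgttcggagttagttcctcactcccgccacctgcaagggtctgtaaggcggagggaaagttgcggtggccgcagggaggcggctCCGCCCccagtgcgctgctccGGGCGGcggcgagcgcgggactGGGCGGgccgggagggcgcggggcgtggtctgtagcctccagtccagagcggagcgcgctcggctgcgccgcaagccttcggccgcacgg
Ranbp2: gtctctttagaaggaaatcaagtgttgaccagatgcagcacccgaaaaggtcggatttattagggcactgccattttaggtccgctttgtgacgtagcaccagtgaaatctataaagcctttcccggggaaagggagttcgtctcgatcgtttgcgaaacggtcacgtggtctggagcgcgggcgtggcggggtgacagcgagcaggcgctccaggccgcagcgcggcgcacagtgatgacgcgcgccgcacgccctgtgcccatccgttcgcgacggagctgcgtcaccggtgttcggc
Nup98: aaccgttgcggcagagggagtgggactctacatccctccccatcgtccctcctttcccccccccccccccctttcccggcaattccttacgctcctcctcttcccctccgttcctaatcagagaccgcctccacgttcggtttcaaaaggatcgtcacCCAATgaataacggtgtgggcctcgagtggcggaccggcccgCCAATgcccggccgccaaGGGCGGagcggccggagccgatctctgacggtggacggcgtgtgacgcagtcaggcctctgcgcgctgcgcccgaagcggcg
Nup50: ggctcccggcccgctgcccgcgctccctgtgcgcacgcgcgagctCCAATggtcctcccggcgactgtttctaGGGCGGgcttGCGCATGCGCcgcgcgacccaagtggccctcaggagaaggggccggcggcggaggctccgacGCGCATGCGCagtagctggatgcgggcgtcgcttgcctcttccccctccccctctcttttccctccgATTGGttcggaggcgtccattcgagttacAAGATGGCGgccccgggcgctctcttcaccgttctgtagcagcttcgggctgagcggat
Sun1: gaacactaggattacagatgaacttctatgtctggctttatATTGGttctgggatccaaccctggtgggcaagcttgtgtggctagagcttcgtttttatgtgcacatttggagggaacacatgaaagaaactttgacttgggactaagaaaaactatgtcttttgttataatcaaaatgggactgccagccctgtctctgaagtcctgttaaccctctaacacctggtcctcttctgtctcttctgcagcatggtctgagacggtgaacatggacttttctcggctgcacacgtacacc
Pom121: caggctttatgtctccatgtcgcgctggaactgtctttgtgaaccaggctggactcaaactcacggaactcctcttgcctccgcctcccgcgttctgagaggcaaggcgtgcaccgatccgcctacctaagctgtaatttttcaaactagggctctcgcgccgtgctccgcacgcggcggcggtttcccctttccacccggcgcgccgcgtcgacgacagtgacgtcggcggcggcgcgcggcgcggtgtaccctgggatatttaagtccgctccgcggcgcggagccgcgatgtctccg

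The strong Nup54 and Nup155 promoters both held the ETS letters, at positions -76 and -8 from the start, and Nup155 also held CCAAT and a pair of SP matches. The ETS letters did not go with strength throughout. Among other members, the strong Nup107 and the weaker Sec13 promoter held them, and the strong Nup214 promoter did not. Nup50 held the NRF1 letters at a pair of palindromic sites, YY1 letters at position -9, CCAAT in both orientations and an SP match. Syne2 held 3 SP matches and Nup98 2 CCAAT and 1 SP match. The window of the internal Sun1 start, the least GC-rich of the 8 at 45.3%, held a CCAAT match at position -209, upstream of the region called there. The Ranbp2 and Pom121 windows held none of the 5. Of the members, 38 had RefSeq promoter windows, 51 in all, and 42 of these windows overlapped a region called in all 8 libraries. Among those 42 the ETS letters were in 10 (23.81%, against 21% of 10256 such open windows of all genes), the NRF1 letters in 3 (7.143% against 6.045%), CCAAT in 42.86% (against 39.5%) and the SP letters in 73.81% (against 67.02%). The YY1 letters were in 4 of them, at Nup188, Nup205, Nup50 and Nup88 (9.524% against 3.608%), and the AP-1 letters TGANTCA in none (against 5.255%). A match is a description of the letters and not a site of binding.

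Most member promoters were open in every library. Of the 38 members with a promoter window, 35 (92.1%) had a region called in all 8 libraries over it, against 33.2% of 27025 gene symbols, many of which are not expressed in any 1 cell type. The other 3 were Nup160, Syne1 and Syne3. The single Syne3 window surrounds a start inside the gene, and a region 600 bp from the start of the Syne3 span was called in all 8 libraries. Nup160, a scaffold protein of the pore's Y complex, had regions called in all 8 libraries 2.0 kb inside and 3.7 kb outside its start. Over all member regions, 70 of 150 (46.67%) were called in all 8 libraries, against 42.48% of the 61954 regions assigned to any gene. Within 1 kb of a gene end the count was 34 of 41 (82.93%, against 67.43%), and elsewhere 36 of 109 (33.03%, against 35.61%). The high share at gene ends was not particular to the members. A list of 34 other envelope and transport genes, described below, had 33 of 37 there (89.19%). Central channel genes had 7 of 8 regions called in all 8 libraries, prelamin genes 5 of 7 and the LEM-domain group 8 of 28.

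**Figure D1:**
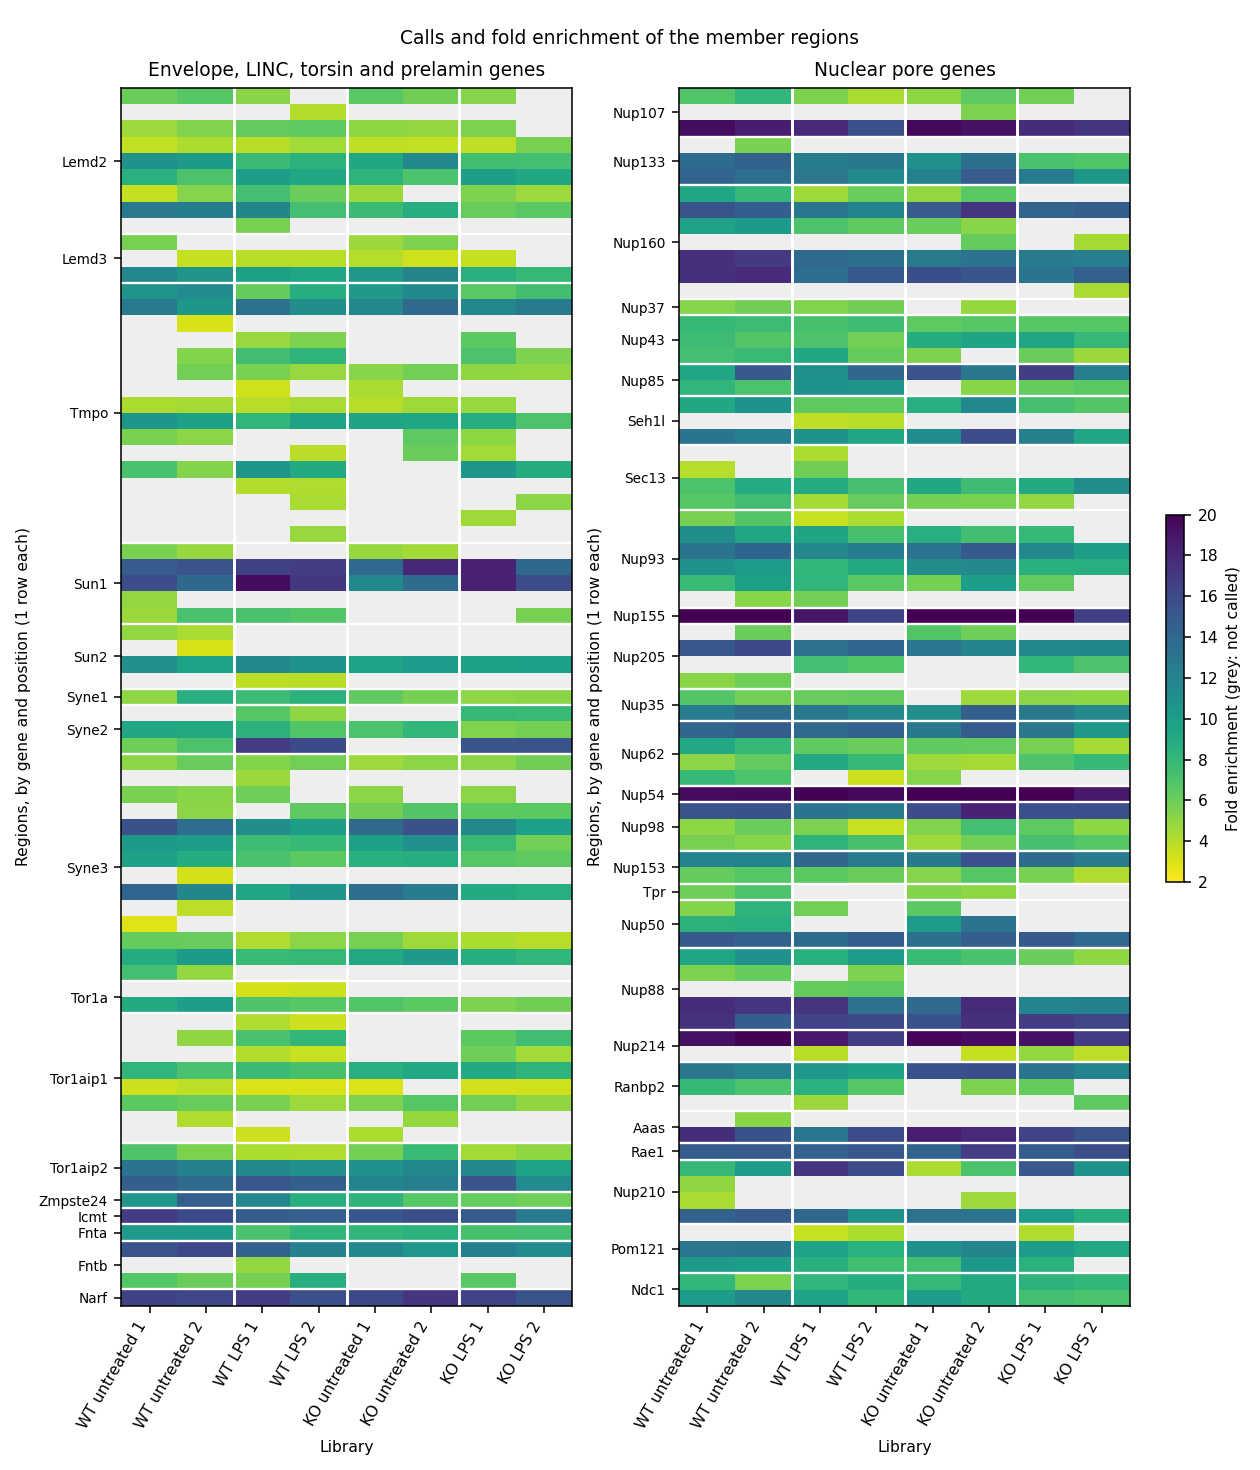
Calls and fold enrichment (colour scale, 2 to 20; grey, not called) of the 150 member regions in rows, grouped by gene, in the 8 libraries in columns. Dark rows at Nup54, Nup155, Nup214 and Nup107 run across all 8 libraries, and the grey cells are mostly in regions away from gene ends.

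Strength was compared as the percentile of a region's fold enrichment among the 30960 regions called in all 8 libraries, from 0 for the weakest to 100 for the strongest, computed within each library. The fold enrichment is the deposited ratio over local background. At Nup54, a central channel nucleoporin, the promoter region (chr5:92434875-92435539) had fold enrichments of 18.79 to 20.55 over the 8 libraries and a mean percentile of 97.4 ± 1.4 (SD, n = 8). Nup155, an inner ring scaffold protein, followed at 97.2 ± 2.4 (SD, n = 8; folds 16.35 to 21.77). Nup214, on the cytoplasmic face, reached 95.8 ± 1.6 (SD, n = 8; folds 16.65 to 19.91). The top 3 differed by less than the spread between libraries. At the other end, the Syne3 region 600 bp from the start had a mean percentile of 7.8 ± 4.9 (SD, n = 8), with folds of 3.91 to 6.22. Syne3 encodes nesprin-3, which links the envelope to intermediate filaments. Tor1a, the ATPase torsinA of the envelope lumen, stood at 26.2 ± 10.1 (SD, n = 8) and Syne2, the giant protein nesprin-2, at 29.3 ± 8.9 (SD, n = 8).

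Pore genes mostly ranked above envelope genes at their gene ends. The median of the mean percentiles was 76.6 over 21 pore genes (34 to 97.4) and 44.5 over 13 envelope genes (7.8 to 89.7). By role it was 88.8 on the cytoplasmic face (5 genes), 84.9 in the central channel (3), 78.3 in the nuclear basket (2), 74.3 in the inner ring (4), 69.2 in the Y complex (6), 73.6 for prelamin processing and binding (5), 42.3 for LINC (4), 44.8 for the membrane ring (1, Ndc1), 48.8 for the LEM-domain group (2) and 31.6 for torsins (2). The roles overlapped widely. Sun1, the inner membrane partner in the LINC bridge, stood at 87.8 and Narf, which binds prelamin A, at 89.7, above most nucleoporins, while Nup43 and Sec13 of the Y complex stood at 34 and 41.2. Zmpste24, the protease that cleaves prelamin A, varied most between libraries, from 20.6 to 78.7 (SD 21.0, n = 8). It stood at 49.3 and 78.7 in untreated WT, 64.5 and 44.5 in WT LPS, 40.3 and 20.6 in untreated KO and 21.8 and 24.5 in KO LPS, so the genotypes did not overlap. KO minus WT was -32.45 ± 8.22 points (SE), the largest genotype difference in size among the 70 ranked member regions, and it did not pass the test (limma adjusted p = 0.0618). It is named here after its values were seen.

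**Figure D2:**
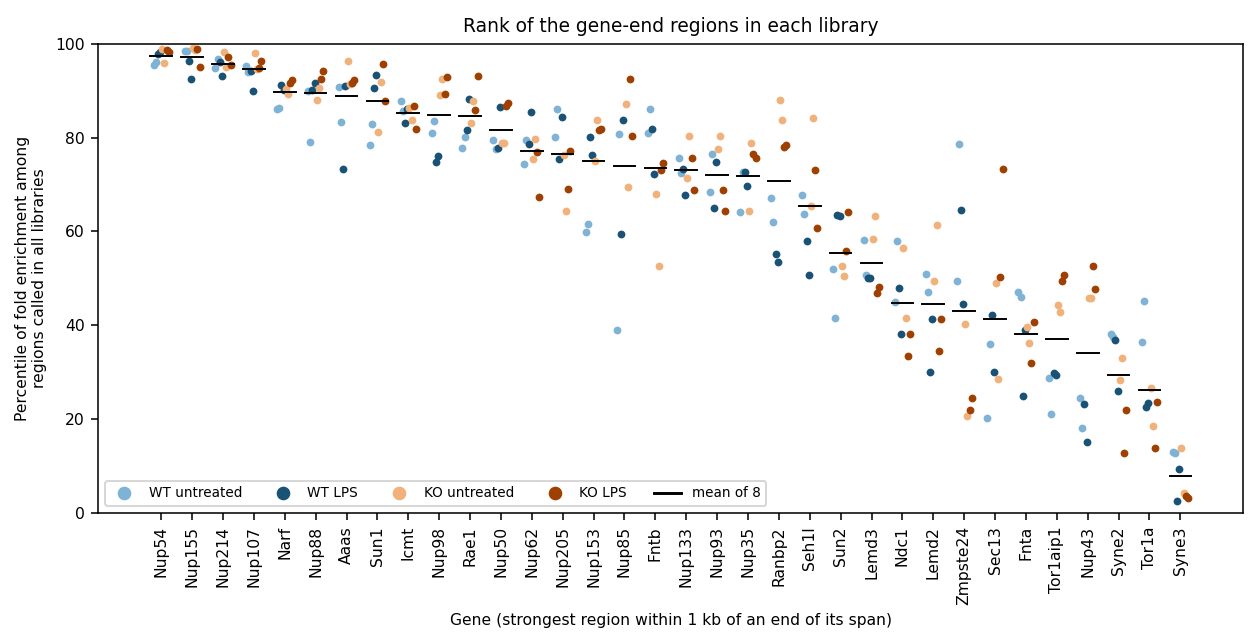
Percentile of fold enrichment (y axis, 0 to 100) of the strongest region within 1 kb of a gene end for each of 34 members (x axis), in the 8 libraries (points, coloured by group), with their mean (bar). The order runs from Nup54 at 97.4 to Syne3 at 7.8, and libraries of a group are most often within the spread of the other groups.

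The LPS comparison asked which member regions appeared or disappeared with LPS. A region was counted as gained when both libraries of the LPS group held it and neither untreated library did, and as lost in the reverse case. In WT cells 11 of 150 member regions (7.33%) were gained, while 10.1% of all 76751 regions were. The count of lost member regions was 7 (4.67%), against 6.02% of all regions. In KO cells 7 were gained (4.67%, against 8.03%) and 7 lost (4.67%, against 5.56%). No p-value was given to calls, since 2 libraries against 2 cannot reach a small exact p. With all libraries used, these 4 member shares were below those of all regions. Without KO LPS replicate 1 the share lost in KO was the higher one, at 10.7% against 9.11%, and without WT untreated replicate 1 the share lost in WT was 10%, against 9.98%.

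Agreement across both genotypes picked out 6 regions. Called in all 4 LPS and no untreated library were 3 member regions (2%), against 4.85% of all regions. The reverse held for 3 (2%), against 1.79%. Among the LPS-gained ones, the Nup205 region (chr6:35191715-35192044) lay inside the gene, 14.3 kb from its start, with folds of 7.35 and 6.89 in WT LPS and 8.11 and 7.04 in KO LPS. Nup205 is a large scaffold protein of the inner ring. At Syne2 the gained region (chr12:75817454-75817835) lay 667 bp upstream of the start and inside the predicted gene Gm40447, with folds of 6.72 and 4.98 in WT LPS and 8.04 and 7.78 in KO LPS. The Syne2 promoter beside it, shown above, was called in all 8 libraries with folds of 5.38 to 9.22. Tor1aip1 encodes LAP1, which activates torsinA, and its gained region (chr1:156013987-156014270), inside the gene, was weak, with folds of 4.06 and 3.53 in WT LPS and 5.99 and 4.47 in KO LPS.

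Among the regions called in untreated cells alone, that of Nup50 was the strongest. Nup50 is a nuclear basket protein that takes part in import, and the region (chr15:84916592-84917017) lay 6.6 kb upstream of its start. Its folds were 8.42 and 8.72 in untreated WT and 10.12 and 13.16 in untreated KO libraries, at percentiles of 55.6 to 81.4 of the whole lists, and no LPS library called it. The Sun1 region 3.4 kb upstream of the start (chr5:139196944-139197357) was weaker, with folds of 5.62 and 4.80 in WT and 4.75 and 4.52 in KO. The region assigned to Tpr, the main filament protein of the nuclear basket, lay 15.3 kb from Tpr inside Odr4 (chr1:150377335-150377719), with folds of 5.97 and 7.04 in WT and 5.36 and 5.05 in KO. The Nup50 and Sun1 regions divided the treatments also when lists were trimmed to equal length and when peaks under a -log10 p of 20 were dropped, where the Tpr region did not.

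Tmpo and Tor1aip1 had more than 1 region gained with LPS. Tmpo encodes LAP2, a LEM-domain protein that binds lamins and BAF. In WT its regions 1.1 kb beyond the 3′ end (folds 4.81 and 5.51) and 25.8 kb upstream of the start (4.07 and 4.16) were gained. In KO those 6.5 kb inside the 3′ end (folds 7 and 5.46) and 17.7 kb upstream (10.54 and 8.87) were gained. The former was also called in both WT LPS libraries (7.49 and 8.26) and 1 untreated WT library (5.37), and the latter in all 4 WT libraries, at 7.19 and 5.36 untreated and 10.46 and 9 with LPS. At Tor1aip1, the region 5.6 kb inside the gene was gained in KO (folds 6.51 and 7.49). It was also called in both WT LPS libraries (7.19 and 8.06) and in 1 of the untreated WT libraries (4.98). The Tor1aip1 region 2.4 kb beyond the gene was gained in WT alone (4.14 and 3.37). Syne2 also gained in KO a region 47.7 kb inside its 3′ end (chr12:76062948-76063472), with folds of 15.24 and 15.31, and this region was called in untreated WT at 5.97 and 7.04 and in WT LPS at 16.82 and 15.98. Its folds in all 4 LPS libraries were above those in the untreated libraries that called it.

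**Figure D3:**
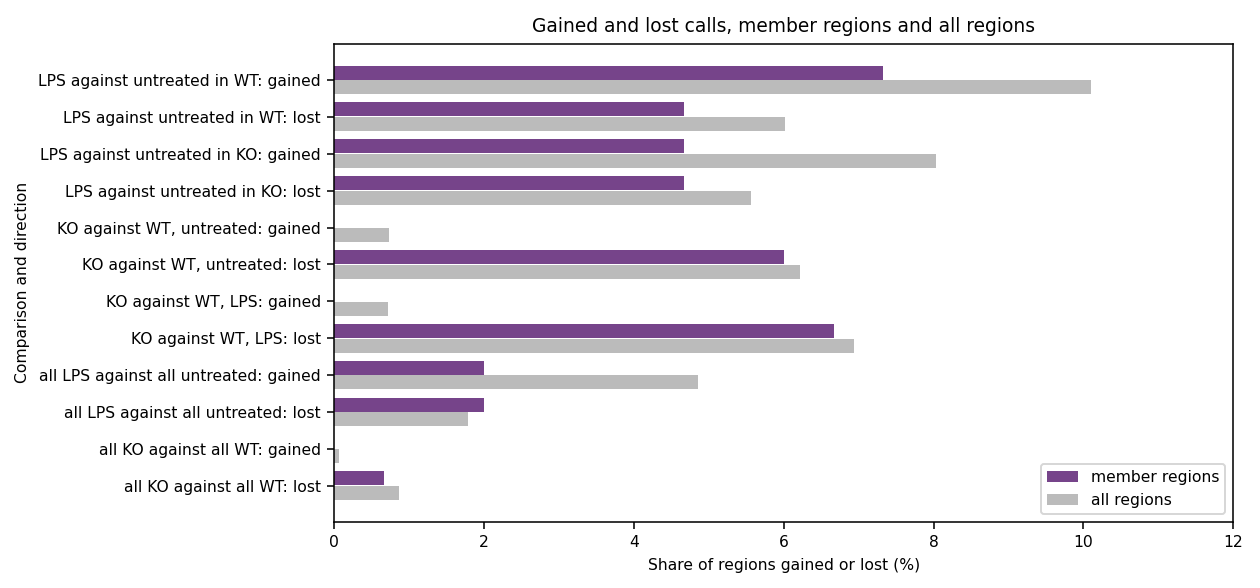
Share of regions gained or lost (x axis, %) in each comparison (y axis), for the 150 member regions and for all 76751 regions. The member bar is longer than the bar of all regions in 1 of the 12 rows, regions called in all untreated and no LPS library (2% against 1.79%).

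In regions called in every library, LPS shifted the rank of 16 of 70 member regions. Of these, 7 (10.0%) ranked higher and 9 (12.9%) lower at an adjusted p under 0.05 (limma on percentiles, Benjamini-Hochberg over all 30960 regions), against 14.8% and 15.5% of all such regions. The shifts were mostly away from the ends of the gene spans. At gene ends 1 of 34 member regions was called for LPS (2.9%, against 16.3% of 9022 gene-end regions), and elsewhere 15 of 36 (41.7%, against 36.0% of 21938). The called Sun1 and Pom121 regions count as elsewhere, although each lies over an annotated start inside its gene. The median difference was -2.85 percentile points over the 70 member regions and -0.32 over all.

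The Nup210 region 46.9 kb inside its 3′ end moved the most. Nup210 is a transmembrane nucleoporin of the pore membrane ring, and the region (chr6:91059744-91060212) stood at percentiles of 28.0 and 46.2 in untreated WT, 92.7 and 90.9 in WT LPS, 3.1 and 23.8 in untreated KO and 86.9 and 70.8 in KO LPS. All 4 LPS libraries were above all 4 untreated ones, by 60.04 ± 6.94 points (SE; limma adjusted p = 0.000475). Its deposited folds were 4.26 to 10.10 untreated and 10.78 to 17.21 with LPS. The Nup210 region 1.4 kb inside the start, over its promoter, was not called for LPS (-12.43 ± 4.47 points, SE; limma adjusted p = 0.0637). Nup62, a phenylalanine-glycine repeat protein of the central channel, had a region 4.9 kb inside the gene (chr7:44826543-44827196, next gene Il4i1b) at 6.1 and 14.1 in untreated WT, 44 and 36.2 in WT LPS, 5.1 and 3.5 in untreated KO and 29.2 and 47.5 in KO LPS. The difference was 32.01 ± 4.75 points (SE; limma adjusted p = 0.00136), and the groups did not overlap. At Nup98, another central channel protein that also binds RNA export factors, a region 12.9 kb upstream and inside the neighbouring gene Pgap2 (chr7:102222844-102223474) stood at 9.2, 6.7, 5.1 and 12.3 in the untreated and 35.8, 29.5, 32.6 and 34.1 in the LPS libraries, a difference of 24.65 ± 3.31 points (SE; limma adjusted p = 0.000892).

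Sun1 had an internal region that rose with LPS. It lay 14.8 kb inside the gene (chr5:139215126-139215676), over the internal RefSeq start whose sequence is shown above, and stood at 83.3 and 75 in untreated WT, 97.1 and 94.3 in WT LPS, 68.2 and 74.7 in untreated KO and 95.9 and 93.3 in KO LPS. The difference was 19.86 ± 2.49 points (SE; limma adjusted p = 0.000662), with no overlap. The main Sun1 promoter differed in the same direction, by 8.26 ± 2.78 points (SE), and was just over the threshold (limma adjusted p = 0.0504). Lemd2, a LEM-domain protein of the inner membrane, had a region 1.7 kb from its span at 19.5 to 40.8 in untreated and 48.9 to 59.4 in LPS libraries (24.91 ± 5.82 points, SE; limma adjusted p = 0.0115). A Tor1aip2 region 2.5 kb from its end differed by 11.63 ± 3.26 points (SE; limma adjusted p = 0.0253), with untreated libraries at 66.5 to 77 and LPS libraries at 74.8 to 88, and the Nup153 promoter by 9.89 ± 3.07 (SE; adjusted p = 0.0373). Tor1aip2 encodes LULL1, a torsin cofactor, and Nup153 a basket protein that binds lamins. At Nup153 the untreated libraries were at 59.9 and 61.6 in WT but 75 and 83.7 in KO, which overlaps the LPS libraries at 76.2 to 81.9.

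Syne3 had 4 intragenic regions that fell with LPS. The one 27 kb inside the start (chr12:104983307-104983832) stood at 82.3 and 72.4 in untreated WT, 61.3 and 55.4 in WT LPS, 81.0 and 83.4 in untreated KO and 69.4 and 63.6 in KO LPS, and fell by 17.33 points (SE 3.74; limma adjusted p = 0.00805). The treatments did not overlap there. Those at 19.7, 9.5 and 18.1 kb differed by -19.32, -17.52 and -14.08 points (limma adjusted p = 0.0274, 0.0479 and 0.0376). The 4 lie within 1 gene and are not independent of each other. The other 3 Syne3 regions called in all libraries, the promoter-proximal one included, were not called for LPS.

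Further decreases lay at Tmpo, Seh1l, Nup133, Pom121 and Nup62. The Tmpo region 10.0 kb beyond the 3′ end stood at 50.6 to 60.1 in untreated and 16.5 to 45.1 in LPS libraries and fell by 24.17 points (SE 7.30; limma adjusted p = 0.0338). A region 6.3 kb from Seh1l, a Y complex protein, fell by 22.47 points (SE 5.89; limma adjusted p = 0.0190). Pom121, a transmembrane nucleoporin, fell by 13.99 points at its promoter (SE 4.36; limma adjusted p = 0.0381), from 67.7 and 68.9 to 47.6 and 42.4 in WT and from 62.8 and 63.3 to 58.5 and 58.2 in KO. Another Nup62 region, 6.8 kb inside the gene, fell by 11.30 points (SE 3.63; limma adjusted p = 0.0426), although its neighbour at 4.9 kb rose. The Nup133 region 24.4 kb inside the gene (chr8:123924688-123925107) fell by 17.99 points (SE 4.55; limma adjusted p = 0.0164), but the LPS libraries were at 70.1 and 76.5 in WT and 31.5 and 35.7 in KO, against 72.5 and 77.7 in untreated WT and 62.7 and 72.8 in untreated KO. Nup133 is a Y complex protein.

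**Figure D4:**
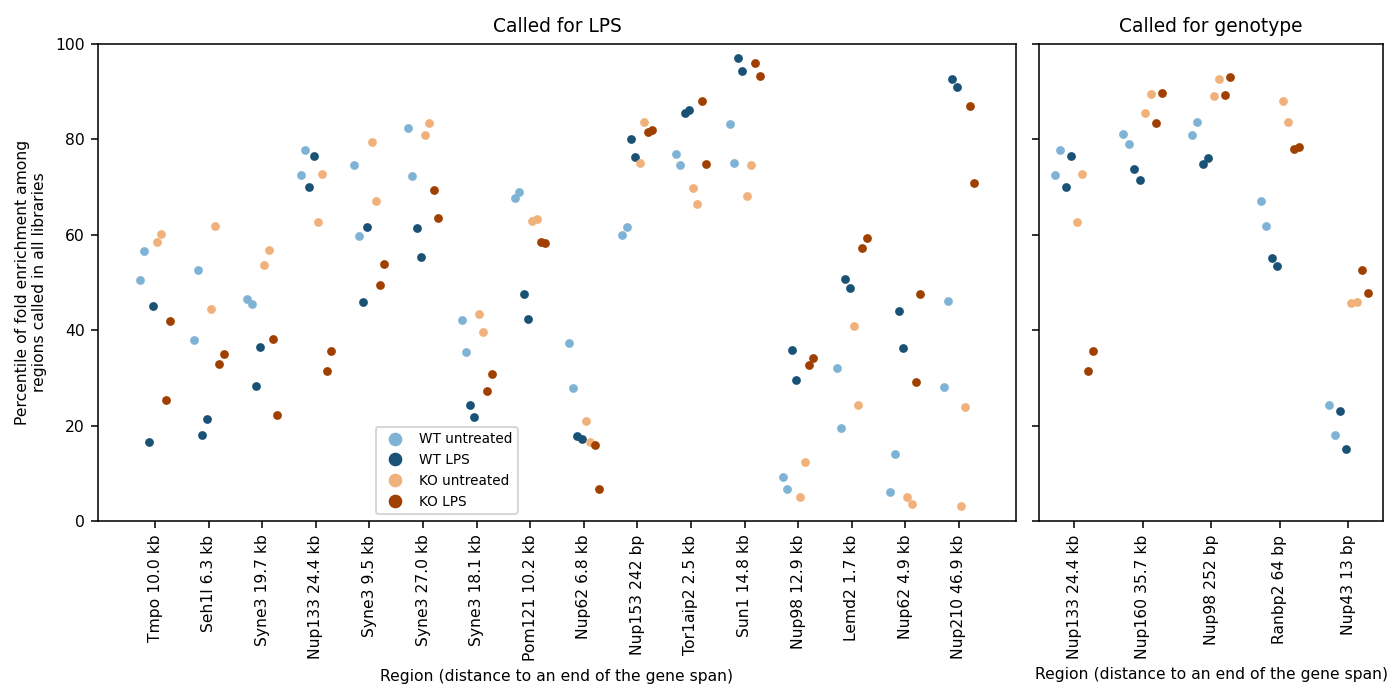
Percentile of fold enrichment (y axis, 0 to 100) in the 8 libraries (points, coloured by group) for the 16 regions called for LPS (left) and the 5 called for genotype (right), named by gene and distance to a gene end. At Nup210 the LPS libraries lie at 70.8 to 92.7 and the untreated ones at 3.1 to 46.2. The Nup133 region is in both panels.

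Of the 16 LPS calls, 11 were lost in at least 1 omission of a single library, while every difference kept its direction. The calls at Nup210, Nup62 (4.9 kb), Nup98 (12.9 kb), Sun1 and Syne3 (27 kb) held when any library was left out, with limma adjusted p up to 0.00287, 0.00934, 0.00676, 0.00404 and 0.0393. Lemd2 lost its call without WT untreated replicate 2 alone (limma adjusted p = 0.051). Nup133 and Seh1l lost theirs without WT untreated replicate 2, WT LPS replicate 1 or KO untreated replicate 2 (limma adjusted p up to 0.0669 and 0.0705), at -20.51 to -15.47 and -26.83 to -18.11 points over the 8 omissions. The Tor1aip2, Tmpo, Nup62 (6.8 kb) and Syne3 (9.5 and 19.7 kb) calls each held in 2 of the 8 omissions, Nup153 in 1, and Pom121 and Syne3 (18.1 kb) in 0, with limma adjusted p up to 0.0746, 0.102, 0.134, 0.167, 0.0907, 0.113, 0.107 and 0.119, in that order. Tor1aip2 held without replicate 1 of KO untreated or 2 of KO LPS, Tmpo without replicate 2 of WT LPS or of KO LPS, Nup62 (6.8 kb) without replicate 2 of WT untreated or 1 of KO LPS, Syne3 at 9.5 kb without replicate 2 of either WT group, Syne3 at 19.7 kb without replicate 2 of WT LPS or 1 of KO LPS, and Nup153 without KO untreated replicate 2. The Pom121 and Syne3 (18.1 kb) differences stayed at -15.27 to -12.71 and -15.76 to -12.39 points. Ranked by -log10 p, the Seh1l, Nup153 and Nup62 (6.8 kb) calls ended, at -7.74, 4.61 and -7.04 points (limma adjusted p = 0.22, 0.0562 and 0.231).

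The genotype comparison asked what loss of Lamin-A changed at these genes. In untreated cells 0 of 150 member regions were gained in KO (0.735% of all regions) and 9 were lost (6%, against 6.22%). With LPS 0 were gained (0.711% of all regions) and 10 lost (6.67%, against 6.94%). The lost regions lay in untreated cells at Tmpo, Sun1, Sun2, Syne2, Syne3, Fntb, Nup93, Nup205 and Nup88, and with LPS at Tmpo, Sun2, Tor1a, Tor1aip1, Nup160, Nup37, Seh1l, Nup93 and Nup88. With 44504 peaks taken from every list, the strongest by -log10 p, the lost counts were 2 (Fntb and Syne2; 2.08% of all regions) and 1 (Nup160; 2.23%), and 2 (Lemd3 and Syne3; 1.33%, against 1.9% of all regions) and 1 (Tmpo; 0.667%, against 1.89%) were gained.

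A single region divided all WT from all KO libraries (0.667% of member regions, against 0.861% of all), and 0 did so in the other direction (0.0678% of all). It lay 14.9 kb upstream of Nup93, an inner ring protein, towards the metallothionein genes Mt1 and Mt2 (chr8:94199416-94199799). Its folds were 5.70 and 6.79 in untreated WT and 3.5 and 4.22 in WT LPS, the last near the low end of that list at a percentile of 3.9 for replicate 1. With equal numbers of peaks it no longer divided the genotypes. The Nup93 promoter, shared by all 8 libraries at folds of 9.91 to 14.87, was not called for genotype in rank.

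Nup160 lost 2 upstream regions in KO cells with LPS. They lay 42.0 kb (chr2:90634869-90635450) and 27.1 kb (chr2:90649951-90650356) from its start. The first had folds of 9.35 and 7.99 in untreated WT, 4.6 and 6.06 in WT LPS and 4.90 and 6.58 in untreated KO. The second had 9.63 and 10.22, 7.05 and 6.37, and 6.12 and 5.20. Neither KO LPS library called them, so both were also lost with LPS within KO. A region between them, 35.7 kb from the start, was called in all 8 libraries at folds of 11.96 to 17.23.

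Rank differences between the genotypes were few. Among the 70 member regions 4 (5.71%) ranked higher in KO, against 1.75% of all constitutive regions, and 1 (1.43%) ranked lower, against 1.65% (limma, adjusted p under 0.05). Of the 34 gene-end regions 3 were called, all higher in KO (8.8%, against 2.5% called at gene ends in either direction over all genes). The median difference was 1.86 points over the members and 0.38 over all regions.

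At the Ranbp2 promoter (chr10:58446162-58447157) the percentiles were 67.1 and 61.9 in untreated WT, 55.1 and 53.4 in WT LPS, 88.0 and 83.7 in untreated KO and 78.0 and 78.4 in KO LPS. Every KO library was above every WT library, by 22.64 ± 3.29 points (SE; limma adjusted p = 0.0188), although the deposited folds overlapped, at 9.67 to 12.86 in WT and 11.96 to 15.65 in KO. Ranbp2 is the filament protein of the pore's cytoplasmic face and a SUMO ligase. Nup43, a Y complex protein, had percentiles of 24.4, 18, 23.1 and 15.0 in WT and 45.7, 45.8, 52.5 and 47.7 in KO at its gene end (chr10:7667258-7667762, within the span of Pcmt1), a difference of 27.81 ± 4.6 points (SE; limma adjusted p = 0.0241). Folds there did not overlap, at 5.80 to 7.63 in WT and 8 to 9.49 in KO. The Nup98 promoter (chr7:102209674-102210772) stood at 81.0, 83.6, 74.9 and 76.0 in WT and 89.1, 92.6, 89.2 and 93.0 in KO, a difference of 12.11 ± 1.93 points (SE; limma adjusted p = 0.0224). The upstream Nup160 region at 35.7 kb was higher by 10.73 ± 2.36 points (SE; limma adjusted p = 0.0462), and the intragenic Nup133 region fell by 23.51 points (SE 4.55; limma adjusted p = 0.0342), its low values being those of the KO LPS libraries.

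These 5 genotype calls depended on the libraries used. Without any 1 of the 4 WT libraries or KO LPS replicate 2, none of the 5 passed, and without KO untreated replicate 1 or 2 a single region did (Nup98 and Ranbp2, respectively). Without KO LPS replicate 1 the Ranbp2, Nup98 and Nup43 calls held (limma adjusted p = 0.0440, 0.0420 and 0.0470). Over the 8 omissions the limma adjusted p reached 0.0787 for Ranbp2, 0.0799 for Nup98, 0.103 for Nup43, 0.139 for Nup160 and 0.125 for Nup133, while the differences stayed at 21.33 to 23.95, 11.19 to 13.04, 25.79 to 29.84, 9.15 to 12.30 and -26.03 to -20.99 points. Ranked by -log10 p in place of fold enrichment, the Nup160, Nup98 and Nup133 calls also ended, at 4, 1.56 and -11.62 points (limma adjusted p = 0.273, 0.145 and 0.167). The Nup160 call ended in all 12 alternatives tried.

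A further comparison asked whether the LPS response differed between the genotypes. No member region passed in either direction (limma interaction, 0 higher and 0 lower, as for 0% and 0% of all 30960 regions). At an unadjusted limma p under 0.05 there were 2 higher and 2 lower of the 70 member regions, against 3.99% and 3.86% of all regions. The most negative differences were those of Nup133 at 24.4 kb, where the LPS shift in KO minus that in WT was -32.31 points (SE 9.10; limma adjusted p = 0.488), and of the single region assigned to Syne1, within this giant nesprin gene (-19.78 ± 12.25 points, SE; limma adjusted p = 0.748). The most positive were those of Fntb, a farnesyltransferase subunit that acts on prelamin A (20 ± 8.31 points, SE; limma adjusted p = 0.612), and Pom121 (18.68 ± 8.72, SE; limma adjusted p = 0.651). The LPS shifts at Nup210, Nup62, Nup98 and Sun1 passed in each genotype alone.

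**Figure D5:**
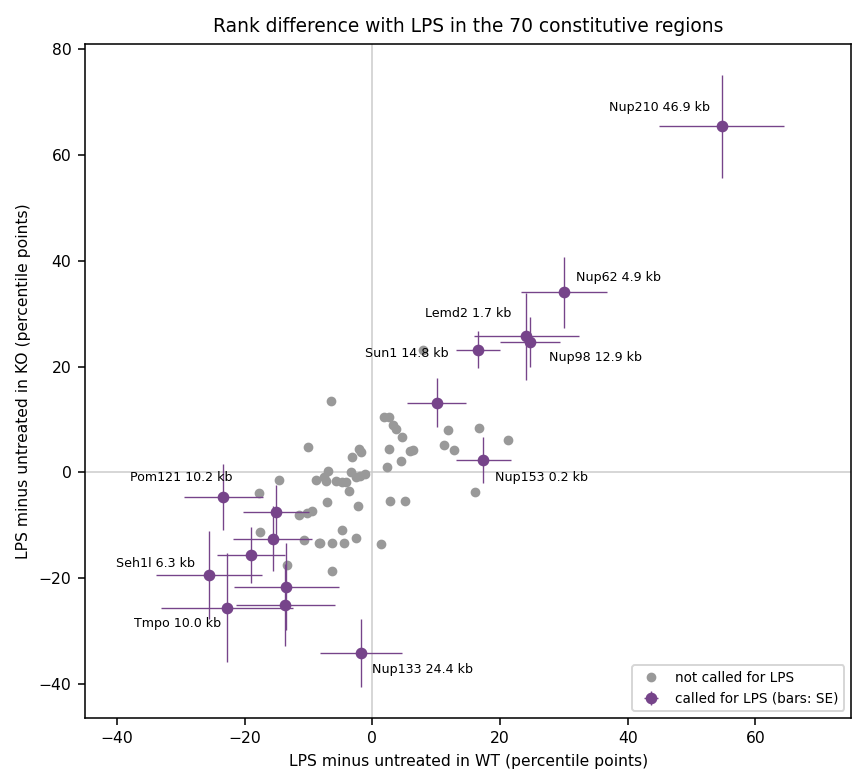
LPS minus untreated percentile in WT (x axis) and in KO (y axis) for the 70 member regions called in all libraries, with SE bars on the 16 called for LPS over both genotypes. Nup210, Nup62 (4.9 kb), Nup98 (12.9 kb), Lemd2 and Sun1 lie above 15 points on both axes, and Nup133 lies near 0 in WT and at -34.15 in KO.

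Other genes of nuclear transport and the envelope were described alongside. The list held 34 genes, among them importins (Kpnb1 and 5 Kpna genes), the exportin Xpo1, the GTPase Ran and its regulators. It had 115 regions, 61 of them called in all 8 libraries (53.04%, against 46.67% of member regions). With LPS, 10 (8.70%) were gained and 4 (3.48%) lost in WT, and 3 (2.61%) gained and 2 (1.74%) lost in KO. In KO against WT, 6 (5.22%) were lost untreated and 10 (8.70%) with LPS, and 1 was gained in each (0.870%). In rank, 3 of the 61 were higher and 13 lower with LPS, and 0 were higher and 1, at the mRNA export gene Nxf1, lower in KO. These counts are read against the same shares of all regions as those of the members. Absence of a call is not evidence of closed DNA.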

How the data were processed

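ATAC-seq libraries of mouse bone-marrow-derived macrophages were analysed from 8 deposited peak lists, 1 per library and not pooled. Per the submitters' processing notes, reads were handled with BWA 0.7.12 and MACS2 on mm10, and how the lists were filtered is not given in the sources used here. Each deposited peak carried a fold enrichment (a ratio over local background within its library), a -log10 p and a -log10 q, a score that the authors' caller made from the -log10 p, and a summit offset. Read counts and depth per library are unknown, so no counting interval is given. The titles of the LPS libraries were followed, although their source names also carry the word untreated.

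Peaks overlapping by at least 1 bp were merged, and summits were assigned to RefSeq protein-coding genes (GRCm38.p6) within 50 kb. Gained and lost calls required both libraries of a group. For regions called in all 8 libraries, percentiles of the highest overlapping peak's fold were fitted with limma 3.58.1 (R 4.3.3; 4 group means, variance trend, adjusted p threshold 0.05) and tested on simulated data. The remaining steps used Python 3.11.15, pandas 2.3.3 and numpy 2.4.6. Members and lists were chosen with earlier results of these data known. Values are given for regions dividing a treatment or genotype, for rank calls (up to 10 per direction, or the 2 largest where none passed), for members with 2 or more gained or lost regions and for the 3 strongest and 3 weakest gene-end regions. Alternatives are in the closing section.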

Additional observations from a re-analysis of the deposited data

How the results depend on the processing

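Of 268 values of the 21 named rank differences under up to 13 alternatives each, 156 kept their call, 112 lost it and 0 reversed. The 5 that kept it in every alternative were the LPS shifts at Nup210, Nup62 (4.9 kb), Nup98 (12.9 kb), Sun1 and Syne3 (27 kb). With a -log10 p of at least 20, 6 member regions were gained and 4 lost with LPS in WT (4% and 2.67%, against 8.02% and 5.54% of all regions), 3 were lost with LPS in KO (2%, against 5.3%), 1 was gained in untreated KO (0.667%, against 0.618%) and 5 were lost in KO with LPS (3.33%, against 5.65%). With equal numbers of peaks, 5 were gained with LPS in WT (3.33%, against 7.53%), 2 gained and 2 lost in untreated KO (1.33% each, against 1.9% and 2.08%), 1 gained and 1 lost in KO with LPS (0.667% each, against 1.89% and 2.23%), and 0 divided all WT from all KO (against 0.151% lost in all KO). When peaks had to cover 50% of a region, 5 were called in all LPS and no untreated libraries (3.33%, against 5.2%) and 2 in all WT and no KO libraries (1.33%, against 0.999%). Genes within 20 kb left 6 of 122 lost in KO with LPS (4.92%, against 6.94%), 4 lost with LPS in KO (3.28%, against 5.56%) and 0 ranked lower in KO. Ranks of the -log10 p gave 2 higher and 0 lower in KO and 15 lower with LPS, ranks within whole lists 7 lower in KO, and normal scores 3 lower in KO. A percentile within a whole list also depends on the length of that list, and the KO lists were shorter. What this adds to the count was not tested. Shares of all regions were not computed for rank counts under the alternatives. These rank counts, and those below, are therefore not read as results about the members.

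When a library was left out, a call rested on fewer libraries and the counts moved by construction. Gained with LPS ranged from 11 to 19 in WT and from 10 to 11 in KO, and lost from 9 to 15 and from 7 to 16. KO gained and lost ranged from 1 to 4 and 13 to 18 untreated, and from 1 to 2 and 11 to 22 with LPS. Moves over 1.5 times were 19 without WT LPS replicate 2 (gained, WT), 15 and 12 without WT untreated replicate 1 and 2 (lost, WT), 11 without either KO LPS library (gained, KO), 11 without either KO untreated library and 16 without KO LPS replicate 1 (lost, KO). For regions lost in KO they were 18, 15 and 14 without WT untreated replicate 1, KO untreated replicate 1 and KO untreated replicate 2, and with LPS 19 and 22 without WT LPS replicate 2 and KO LPS replicate 1. Against all regions, the member share lost in KO was then the higher one without KO LPS replicate 1 (14.7%, against 12.7%, with LPS), KO untreated replicate 1 (10%, against 9.04%, untreated) and WT untreated replicate 1 (12%, against 11.6%, untreated), and the share gained in untreated KO without WT untreated replicate 2 (2.67%, against 1.49%). Shares lost with LPS that were then higher are given with the LPS comparison. In all other omissions, member shares gained or lost between 2 groups were below those of all regions. All-LPS gains ranged from 3 to 5, all-LPS losses from 3 to 4 and all-KO losses from 1 to 2. Rank counts ranged from 4 to 7 higher and 2 to 6 lower with LPS, and from 0 to 3 higher and 0 to 0 lower in KO.

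With the replicate number as a block, 6 regions were higher and 6 lower with LPS, 3 higher and 1 lower in KO, and 0 and 0 in the interaction. Deviations of same-numbered libraries from their group means correlated by -0.08 to 0.03, so no rank shift shared by replicate number was seen. The labels do not say whether same-numbered libraries came from 1 animal or preparation, and these correlations cannot decide it.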
